A study of Homo sapiens with 18 samples.

Results

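Mitosis is driven by a small set of kinases and ended by regulated protein destruction. Polo-like kinase 1, the Aurora kinases and NEK2 act on centrosomes, spindle and kinetochores once they are switched on by partner proteins such as TPX2 and BORA. The anaphase-promoting complex (APC/C), a ubiquitin ligase, then marks securin, cyclin B and many of the same kinases for destruction when it is bound by its activators, CDC20 in metaphase and FZR1 (CDH1) from mitotic exit into G1. Transcripts of most of these genes are known to peak in G2 and mitosis, so dividing cultures hold more of them than resting cultures.

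Expression of 10 of these genes, out of 58302 in the count table, was examined in Erastin-treated glioblastoma cells. They were the kinases PLK1, AURKA, AURKB and NEK2, the kinase activators TPX2 and BORA, the APC/C activators CDC20 and FZR1, the ubiquitin-conjugating enzyme UBE2C and the APC/C substrate PTTG1 (securin). The genes were selected by their known roles and on their measured difference between the same control and Erastin libraries. Their differences are therefore given as a description, with no test. All 10 were found by their Ensembl identifiers, and all 10 passed the filter on low counts.

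RNA-seq was performed on U87MG cells, an established human glioblastoma line, as 2 biological replicates per group. The control cells were titled WT and labelled as grown under normal conditions. The other cells had received Erastin, an inhibitor of cystine uptake through system Xc-, at 10 μM for 72 h. Whether the control cultures received a vehicle is not stated in their labels. The libraries held between 29412656 and 31513519 counts on genes. Of 8 markers fixed for a glioma line, VIM and CD44 were abundant, OLIG2 lay between 2.19 and 2.90 TPM, GFAP stayed below 1 TPM (reads per exon length, scaled to the same total in each library) in every library, and SOX2 and S100B had fewer than 10 counts in every library. NES was at 25.4 and 19.9 TPM in control libraries and 2.51 and 1.72 TPM in Erastin libraries, and CHI3L1 at 183 and 228 and then 49.4 and 48.3 TPM. The sum of the 8 markers lay between 2350 and 2440 TPM in control libraries and between 1710 and 1790 TPM in Erastin libraries, and its part in the results was not tested. Of 12 markers of neurons, leukocytes, endothelium and epithelium, 6 had fewer than 10 counts in every library (RBFOX3, PTPRC, CD3E, CDH5, CDH1 and KRT5). The summed level of the 12 lay between 47.1 and 54.6 TPM in control libraries and between 11.5 and 12 TPM in Erastin libraries, most of it SNAP25 and SYT1, and its part in the results was not tested.

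The DNA just upstream of the start site is shown for 4 of the genes, chosen for the 3 largest differences and the smallest. The sequences are the 250 bases before the RefSeq start (for FZR1 the first 212 of these, up to the gene as counted), 5′ to 3′ on the gene's strand, from the RefSeq annotation of GRCh38.p14. They lie at chr1:43358731-43358980 (CDC20, plus strand), chr16:23678639-23678888 (PLK1, plus strand), chr1:211675622-211675871 (NEK2, minus strand) and chr19:3506061-3506272 (FZR1, the first of 2 listed starts, plus strand). RefSeq starts differ from the outer ends of the genes in the count table, and all 4 starts used here lie inside their genes as counted. The last bases shown for CDC20 and NEK2, and all 250 shown for PLK1, therefore fall within the gene as counted. Capitals mark matches on either strand to TTTGAA or TTCGAA (letters of the cell cycle homology region, or CHR), to CCAAT (the NF-Y box), and to TTCGCG or TTGGCG (letters of E2F sites).
CDC20: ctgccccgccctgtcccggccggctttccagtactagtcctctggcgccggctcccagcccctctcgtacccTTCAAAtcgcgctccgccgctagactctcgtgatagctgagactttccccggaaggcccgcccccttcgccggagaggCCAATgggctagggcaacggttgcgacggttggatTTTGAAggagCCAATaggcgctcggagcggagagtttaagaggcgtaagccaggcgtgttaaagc
PLK1: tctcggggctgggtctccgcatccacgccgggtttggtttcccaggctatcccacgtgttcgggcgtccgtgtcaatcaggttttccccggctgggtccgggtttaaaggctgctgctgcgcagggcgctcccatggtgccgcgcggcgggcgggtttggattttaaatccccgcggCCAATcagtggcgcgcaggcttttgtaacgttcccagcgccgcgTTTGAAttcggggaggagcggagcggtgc
NEK2: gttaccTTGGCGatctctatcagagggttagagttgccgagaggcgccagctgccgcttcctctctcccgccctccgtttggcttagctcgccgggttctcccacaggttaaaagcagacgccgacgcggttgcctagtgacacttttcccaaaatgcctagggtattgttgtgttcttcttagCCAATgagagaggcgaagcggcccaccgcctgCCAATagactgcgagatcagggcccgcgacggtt
FZR1: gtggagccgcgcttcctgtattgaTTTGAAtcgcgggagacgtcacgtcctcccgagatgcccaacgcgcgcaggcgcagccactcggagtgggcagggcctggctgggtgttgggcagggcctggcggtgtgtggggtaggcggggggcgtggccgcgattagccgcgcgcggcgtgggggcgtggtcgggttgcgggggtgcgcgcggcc

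The promoter table held 7 of the 10 genes, with 10 starts among them, and lacked AURKA, TPX2 and UBE2C. By gene, CCAAT was found in 6 of the 7, since the close starts of AURKB and of PTTG1 share their matches. By start it was found at 8 of 10, against 34.6% of all 35116 listed starts searched over the same 300 bases (250 before and 50 after the start). TTTGAA or TTCGAA was found at 4 of the 10 starts, against 16.4% of all starts and 12.4% of those of tested genes. TTCGCG or TTGGCG was found at 2 of 10, against 14.1% of all starts and 19.9% of those of tested genes. The share for CCAAT was 34.6% in both. Positions are counted from the start, with −1 the last base before it. In CDC20 a TTTGAA began at −65, between CCAAT letters at −100 and −55, and TTTGAA on the opposite strand at −178. In PLK1 a TTTGAA began at −29 and a CCAAT at −73. NEK2 held CCAAT at −66 and −34, TTGGCG at −244 and no CHR letters in the window. BORA held TTTGAA and TTCGAA at −177 and −124 and CCAAT on the opposite strand at −96 and −64, and TTCGCG at −87. FZR1 held only a TTTGAA, at −226 of its first start, and no CCAAT at either start. PTTG1 held CCAAT on both strands, of which 2 matches overlap as CCAATTGG. These matches are letters in a window and not measured binding sites.

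All 10 genes were lower in both Erastin libraries than in both control libraries, a pattern seen in 36.9% of all 16751 genes tested. They were lower by between 1.34-fold (FZR1) and 24.6-fold (CDC20), and the median log2 fold change was −2.71, against −0.0026 over all genes tested. In all, 9 of the 10 had a log2 fold change of −1 or less with an adjusted p, from edgeR, of less than 0.05. The same held for 9.34% of all genes tested. FZR1, with a log2 fold change of −0.42, did not reach the fold threshold. Both counts follow from how the genes were chosen and are not evidence about them. In bulk RNA, fewer cells in mitosis and less of these transcripts per cell cannot be told apart.

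**Figure D1:**
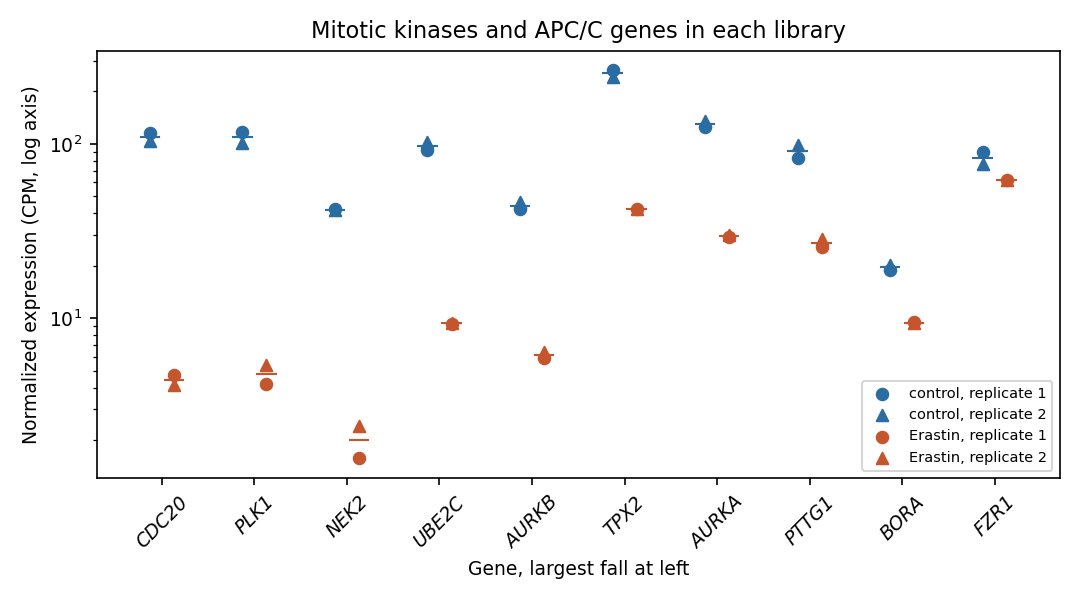
Normalized expression in CPM (log axis) of the 10 genes in each library, with control in blue, Erastin in orange, replicate 1 as circles, replicate 2 as triangles and short lines for group means. The groups do not overlap for any gene, and the gap is widest for CDC20 and narrowest for FZR1.

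Among the kinases, PLK1 and NEK2 had the largest differences. PLK1 is the Polo-like kinase that drives centrosome maturation and mitotic entry (ENSG00000166851, chromosome 16 of GRCh38, 23677656 to 23690367). PLK1 had 3595 and 3135 counts in control cells and 125 and 169 in Erastin-treated cells. In CPM (counts scaled to a common library total) this was 109 ± 11.8 against 4.78 ± 0.848 CPM (SD, n = 2 each), a log2 fold change of −4.51 (standard error 0.129). An antisense gene of the annotation covers 11.6% of the exon bases of PLK1 and had between 0 and 3 counts per library.

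NEK2, a kinase of the centrosome linker (ENSG00000117650, chromosome 1, 211658657 to 211675630), had 1285 and 1298 counts in control cells and 47 and 76 in Erastin-treated cells. In normalized terms it was 41.9 ± 0.171 CPM against 2.00 ± 0.599 CPM (SD, n = 2 each), with a log2 fold change of −4.39 (standard error 0.172). NEK2 thus had the lowest level of the 10 genes after treatment, and its Erastin replicates were the furthest apart, by 0.62 on the log2 scale. Leaving out Erastin replicate 2 moved its log2 fold change to −4.73, past the −4.71 of PLK1 and the −4.52 of CDC20 in that fit, so the order of these 3 genes is not resolved, and leaving out Erastin replicate 1 moved it to −4.11.

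The Aurora kinases differed less. AURKB, the catalytic subunit of the chromosomal passenger complex (ENSG00000178999, chromosome 17, 8204733 to 8210600), had 1288 and 1432 counts in control cells and 176 and 200 in Erastin-treated cells. Its log2 fold change was −2.85 (standard error 0.122). AURKA, the Aurora kinase of centrosomes and spindle poles (ENSG00000087586, chromosome 20, 56369389 to 56392337), had 3812 and 4182 counts and then 878 and 944, a log2 fold change of −2.13 (standard error 0.0782). AURKA therefore kept 22.9% of its control level, AURKB 13.9% and PLK1 4.39%. The ratio of AURKB to AURKA per exon length was 0.441 and 0.447 in control cells and 0.262 and 0.277 after Erastin. For AURKA, 20.3% of all 31-base stretches in its longest transcript recur in transcripts of other genes, chiefly RAB3GAP2, and for AURKB 0.490% do. Reads that matched several places were not counted.

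Both kinase activators were also lower. TPX2, the spindle protein that activates AURKA (ENSG00000088325, chromosome 20, 31739271 to 31801805), had 8084 and 7517 counts in control cells and 1269 and 1324 in Erastin-treated cells. Its expression was 253 ± 15.8 CPM and 42.3 ± 0.204 CPM (SD, n = 2 each), a log2 fold change of −2.58 (standard error 0.0755). The ratio of TPX2 to AURKA per exon length was 1.72 and 1.46 in control cells and 1.17 and 1.14 after Erastin.

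BORA, which binds PLK1 and lets AURKA phosphorylate it (ENSG00000136122, chromosome 13, 72727749 to 72756198), was far less affected than PLK1. It had 578 and 627 counts in control cells and 284 and 293 in Erastin-treated cells, a log2 fold change of −1.05 (standard error 0.132), close to the threshold of 1. The ratio of BORA to PLK1 per exon length was 0.240 and 0.299 in control cells and 3.39 and 2.59 after Erastin. Transcripts of the activator were thus less abundant than those of its kinase before treatment and more abundant after it. DIS3 overlaps 37.0% of the exon bases of BORA on the opposite strand, reads on both genes were not counted, and DIS3 itself had 5031 and 5275 counts in control cells and 4489 and 4658 in Erastin-treated cells.

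**Figure D2:**
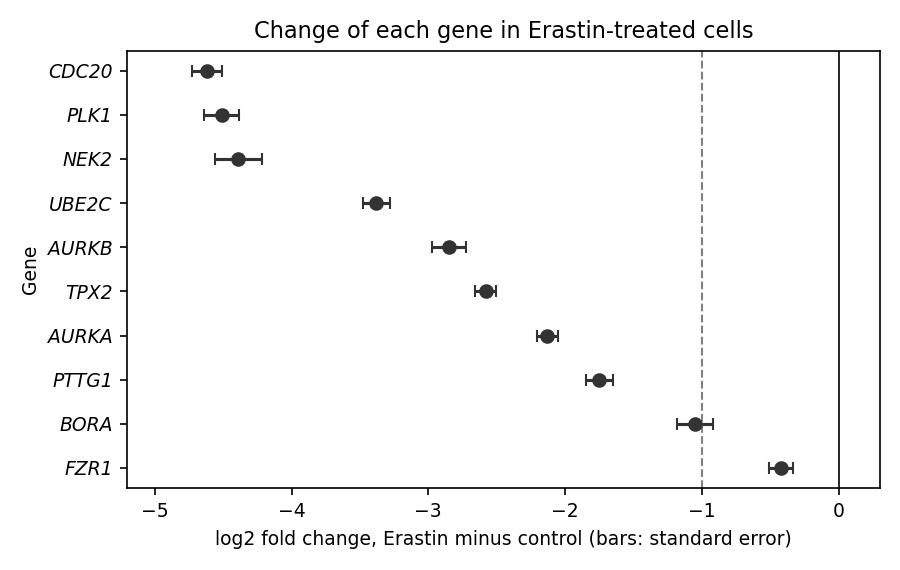
Points give the log2 fold change of each gene (Erastin minus control, 2 libraries each) and bars its standard error, with the threshold of −1 dashed. CDC20, PLK1 and NEK2 lie below −4, BORA lies just past the threshold at −1.05 and FZR1 above it at −0.42.

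The APC/C activators were the most unequal of the 5 pairs compared. CDC20, which activates the complex at metaphase (ENSG00000117399, chromosome 1, 43358955 to 43363203), had 3514 and 3204 counts in control cells and 142 and 130 in Erastin-treated cells. Its expression was 109 ± 8.33 CPM and 4.44 ± 0.431 CPM (SD, n = 2 each), and the log2 fold change was −4.62 (standard error 0.111). FZR1, which replaces CDC20 and keeps the complex active in G1 (ENSG00000105325, chromosome 19, 3506273 to 3538330), had 2748 and 2373 counts in control cells and 1856 and 1942 in Erastin-treated cells. Its log2 fold change was −0.42 (standard error 0.0869), or 74.5% of the control level, and the 2 control libraries differed from each other by 0.23 on the same scale. Without control replicate 1 its log2 fold change was −0.31, and without control replicate 2 it was −0.55. CDC20 exceeded FZR1 by 3.64 and 3.84 times per exon length in the control libraries, and in the Erastin libraries the ratio was 0.218 and 0.191. For CDC20, 23.6% of the 31-base stretches recur in the pseudogene CDC20P1, which had between 1 and 9 counts per library. The CDC20 to FZR1 ratio therefore changed by −4.20 on the log2 scale, the largest change of the 5 pairs compared.

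UBE2C, the E2 enzyme that places the first ubiquitin on APC/C substrates (ENSG00000175063, chromosome 20, 45812576 to 45816957), had 2821 and 3196 counts in control cells and 277 and 296 in Erastin-treated cells. Its log2 fold change was −3.38 (standard error 0.0974). UBE2C was thus retained better than CDC20, and the ratio of UBE2C to CDC20 went from 1.27 and 1.58 to 3.09 and 3.61. PTTG1, the securin that holds separase inactive until anaphase (ENSG00000164611, chromosome 5, 160421822 to 160428744), had 2544 and 3054 counts in control cells and 764 and 891 in Erastin-treated cells. Its log2 fold change was −1.75 (standard error 0.100). PTTG1 shares 11.1% of its 31-base stretches with PTTG3P and 5.96% with PTTG2, and those copies had between 0 and 2 counts per library.

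**Figure D3:**
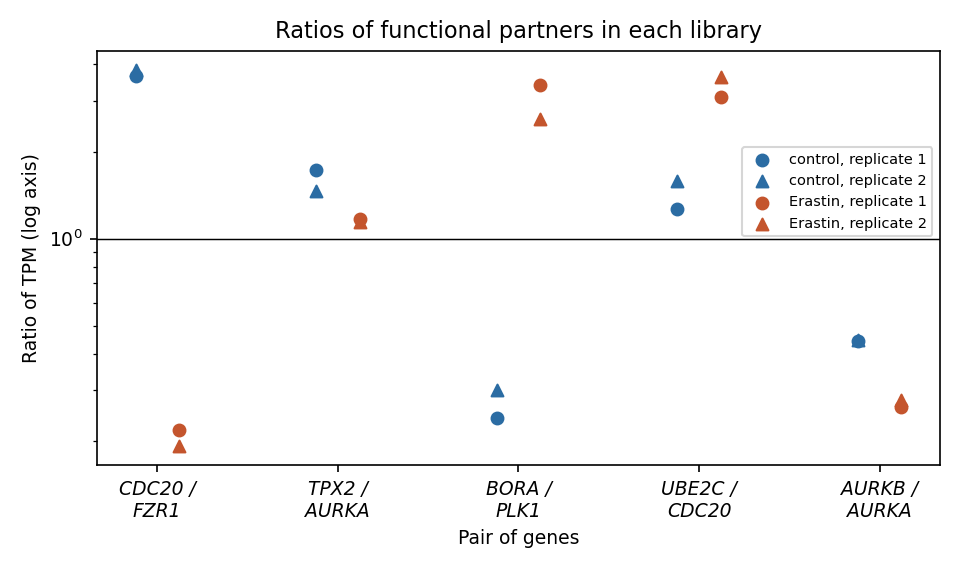
Ratio of the levels per exon length (TPM, log axis) of 5 pairs of functional partners in each library, with control in blue and Erastin in orange. CDC20 to FZR1 goes from above 3 to about 0.2, and BORA to PLK1 goes the other way across 1. TPX2 to AURKA goes from 1.72 and 1.46 to 1.17 and 1.14, and its place relative to 1 depends on the exon length taken for AURKA.

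The order of the levels per exon length also differed between the groups. In control cells UBE2C stood highest with 263 ± 28.1 TPM (SD, n = 2), followed by TPX2, CDC20, PTTG1, AURKA, PLK1, AURKB, FZR1, NEK2 and BORA, the last with 21.2 ± 1.62 TPM. Libraries of the 2 genes overlapped for UBE2C and TPX2, for PTTG1 and AURKA, and for FZR1 and NEK2, so the order within these pairs is not resolved. In Erastin-treated cells PTTG1 stood highest with 52.8 ± 3.16 TPM, followed by TPX2, FZR1, AURKA, UBE2C, BORA, AURKB, CDC20, PLK1 and NEK2, and no neighbours overlapped. FZR1 moved from rank 8 to rank 3 with 49.4 ± 4.19 and 42.1 ± 0.704 TPM, while CDC20 moved from rank 3 to rank 8 with 185 ± 8.58 and 8.60 ± 0.954 TPM. Both orders and these ranks rest on the exon lengths of the count table, which exceed the longest transcript of some genes. AURKB has 2241 bases against 1254, PTTG1 2013 against 1070 and AURKA 2928 against 2248, whereas TPX2 has 3605 in both. Libraries that do not overlap therefore do not settle the order between genes, and other lengths were not tested.

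**Figure D4:**
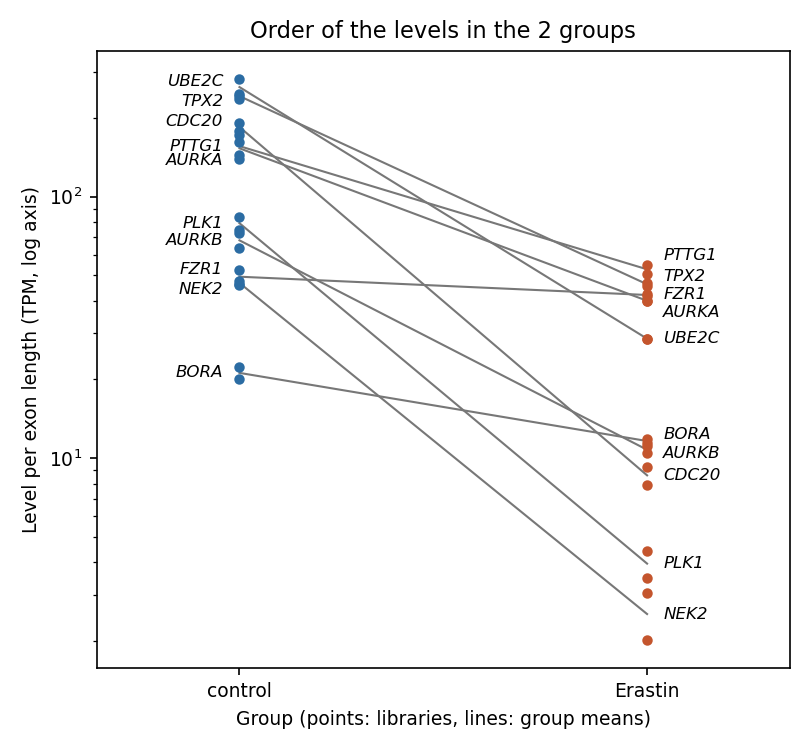
Level per exon length (TPM, log axis) of the 10 genes in control and Erastin libraries, with points for libraries and lines joining group means. The lines of CDC20, PLK1 and NEK2 are the steepest and each crosses that of BORA, and the line of FZR1 is the flattest.

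The differences between replicates were not used to choose the genes. Replicate 2 was above replicate 1 for 5 of the 10 genes in control cells and for 6 of 10 in Erastin-treated cells. The median size of the replicate difference was 0.14 on the log2 scale in control cells and 0.07 in Erastin-treated cells. Over the 9508 tested genes that averaged 10 CPM or more these medians were 0.10 and 0.08. PLK1 and NEK2 were higher in Erastin replicate 2 by 0.36 and 0.62, whereas CDC20 was lower there by 0.20 (a difference of −0.20).

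Other genes of the pathway, in 6 lists written from general knowledge, were examined in the same fit. Of 88 genes listed, 85 could be tested, 38 fell and 1 rose, where 9.34% of all genes tested fell and 6.24% rose. Fell and rose here mean a log2 fold change of 1 or more in size with an adjusted p under 0.05. The lists were chosen with earlier results of these data known. Their counts and the adjusted p values below therefore describe these genes and are not independent evidence.

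Of 18 other mitotic kinases, 10 fell and 1 rose, and the list's median was −1.59 on the log2 scale. A further 2 were lower and 3 higher by adjusted p without reaching the fold threshold. The checkpoint kinases BUB1 and TTK each fell by 3.57 on the log2 scale (standard errors 0.0971 and 0.153, adjusted p = 3.48e-10 and 6.01e-09 from edgeR). PBK, a kinase of dividing cells, fell by 3.15 (adjusted p = 1.26e-09). PLK3, a stress-responsive relative of PLK1, rose from 586 and 582 counts to 1941 and 2082, which is 1.79 on the log2 scale (standard error 0.0907, adjusted p = 2.47e-08). NEK6, with a log2 fold change of −0.94, came closest to the threshold without passing it. Among relatives of the named kinases, noted after their values were seen, PLK4, the kinase of centriole duplication, fell by 2.85, PLK2 had a log2 fold change of 0.93, below the threshold, and AURKC had between 42 and 53 counts per library and a log2 fold change of 0.18. The Polo-like kinases thus did not move as a family.

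Of 11 tested partners of the Aurora and Polo kinases, 7 fell and 0 rose, and the list's median was −1.88 on the log2 scale. Adjusted p alone added 2 that were lower and 0 that were higher. KIF20A, the kinesin that brings PLK1 to the central spindle, fell by 4.35 (standard error 0.137, adjusted p = 7.21e-10). BIRC5 (survivin), a subunit of the passenger complex, fell by 3.53 (adjusted p = 3.98e-10), and PRC1, which bundles midzone microtubules, fell by 3.31 (adjusted p = 1.98e-10). CKAP5, a microtubule polymerase, had a log2 fold change of −0.75, below the threshold. NEDD9 was not tested, with between 0 and 8 counts per library.

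The body of the APC/C came next. Of 14 core subunits and UBE2S, the chain-extending E2, 0 of 15 were called in either direction by edgeR or by DESeq2, although 7 had an unadjusted edgeR p under 0.05, and the median log2 fold change was 0.05. With 9.34% of all genes called lower and 6.24% higher, a count of 0 in so short a list lies near the background. By adjusted p alone, 2 of the 15 were lower and 4 were higher. UBE2S, noted after its values were seen, had 5174 and 4698 counts in control cells and 2766 and 2628 in Erastin-treated cells, a log2 fold change of −0.86 (adjusted p = 3.99e-06). ANAPC16, a small subunit, had 1337 and 1380 counts and then 2660 and 2727. Its log2 fold change of 0.995 (adjusted p = 6.59e-07) lay just below the threshold and passed it when libraries were scaled by their totals or when Erastin replicate 2 was left out. The scaffold ANAPC1 had a log2 fold change of 0.09 and the arm subunits CDC27, CDC16 and CDC23 had −0.09, 0.05 and −0.06, all noted after their values were seen.

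Of 9 tested inhibitors of the APC/C and checkpoint proteins, among them MAD2L1BP, which opposes the checkpoint, 4 fell and 0 rose, with a median log2 fold change of −0.32. BUB1B (BUBR1) and MAD2L1, which bind CDC20 in the mitotic checkpoint complex, fell, with log2 fold changes of −3.54 and −2.22 (adjusted p = 8.59e-10 and 3.19e-08). FBXO43 (EMI2) fell by 2.37 (adjusted p = 4.03e-05) from 184 and 177 counts to 41 and 28. BUB3, another protein of the checkpoint complex, had a log2 fold change of 0.04 (adjusted p = 0.686) and was noted after its value was seen. OTUD7B, a deubiquitinase that opposes the complex, had a log2 fold change of 0.56, below the threshold. OTUD7B and MAD2L1BP were the 2 genes higher by adjusted p alone, and 0 were lower in that way. USP44 had a count of 0 in every library and was not tested.

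Of 15 tested APC/C substrates other than PTTG1 and the kinases, 13 fell and 0 rose, with a median log2 fold change of −2.53. CCNB1, the cyclin that activates CDK1 in mitosis, fell from 5121 and 5253 counts to 391 and 340, a change of −3.82 on the log2 scale (standard error 0.0961, adjusted p = 1.98e-10). HMMR, a spindle protein, fell by 3.81 (adjusted p = 9.26e-09), and ANLN, the cytokinesis protein anillin, fell by 3.40 (adjusted p = 4.05e-10). SKP2 had a log2 fold change of −0.55, below the threshold, and was the 1 gene lower by adjusted p alone. KIFC1 had between 1 and 6 counts per library and was not tested.

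The last list held 17 genes of separase, cohesin, CDC25 phosphatases, and mitotic exit phosphatases with their regulators. Of these, 4 fell and 0 rose, with a median log2 fold change of −0.52. By adjusted p alone, 6 more were lower and 3 were higher. CDC14A, CDC14B, PPP2R2A and PPP2R2D, genes of the exit phosphatases noted after their values were seen, were not called. Their log2 fold changes were 0.52, −0.55, 0.06 and −0.57 (adjusted p = 0.0295, 0.00124, 0.488 and 0.00116 from edgeR). All but PPP2R2A thus missed only the fold threshold. CDC25C, a phosphatase that activates CDK1, fell by 2.94 (adjusted p = 4.11e-06). ESPL1, the separase that PTTG1 restrains, fell by 1.92 (standard error 0.101, adjusted p = 3.38e-08), against the −1.75 of PTTG1. RAD21, the cohesin subunit that separase cuts, fell by 1.16 (adjusted p = 5.19e-08). The cohesin-associated protein PDS5B had a log2 fold change of −0.84, below the threshold.

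**Figure D5:**
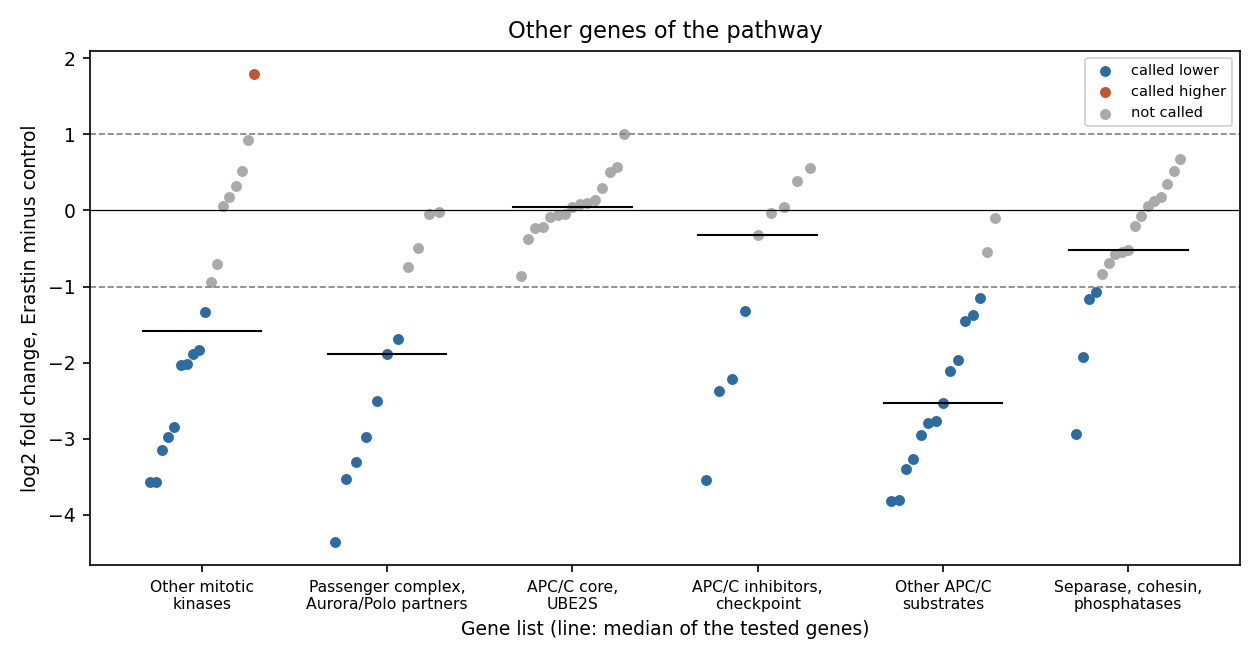
Log2 fold change (Erastin minus control) of 85 tested genes in 6 lists, with genes called lower in blue, called higher in orange and not called in grey, medians as lines and the thresholds of −1 and 1 dashed. The APC/C core list has a median of 0.05 with none called, whereas the substrate list has 13 of 15 genes called lower.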

How the data were processed

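The authors deposited raw counts of reads per gene for 4 RNA-seq libraries. Per the file header these came from featureCounts 2.0.3 with the Ensembl release 90 annotation of GRCh38, counting single reads of pairs without regard to strand and leaving out ambiguous reads, although the methods name htseq-count. The submitters' processing notes give HISAT2 2.1.0. The deposited values were also checked for decimals of estimated counts, and rounding changed 0 of them. Symbols were joined by Ensembl identifier for 57532 genes.

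Genes were filtered with filterByExpr (minimum count 10), scaled by TMM and tested with edgeR 4.0.16 in R 4.3.3 by its quasi-likelihood test, two-sided, with Benjamini-Hochberg adjustment over 16751 genes. Genes were called where the log2 fold change was 1 or more in size with an adjusted p under 0.05, the study's thresholds. Standard errors were derived from the F statistic. CPM used the TMM-scaled totals, and TPM the exon lengths of the count table. The biological coefficient of variation was 10.3%. The smallest p that 2 against 2 libraries allow in an exact permutation is 0.333. No molecular identifiers were used, so reads can be copies of a molecule and counts overstate precision. Recurring 31-base stretches were sought in GENCODE release 44 transcripts.

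The genes and lists were chosen with earlier results of these data known. Named in the text are all 10 genes and, from each list, up to 3 falls and 3 rises with the largest change. The largest change of each list that missed a threshold and its genes removed by the filter are also named. So are some of the genes overlapping or copying one of the 10, and the 5 genes closest to CDC20. Further genes are marked as noted after their values were seen. The 11 alternatives were DESeq2 1.42.0, RLE factors, library totals, no filter, at least 10 counts in every library, a replicate block, counts divided by 2, and each library left out. The tests were checked on simulated data. Protein sequence motifs, planned at first, were not analysed here, nor were ChIP-seq and HiChIP. A planned cell type marker is not reported here.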

Additional observations from a re-analysis of the deposited data

How the results depend on the processing

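Of 154 counts of called genes recomputed under the 11 alternatives, 152 stayed within 1.5 times their main value. The exceptions concern the APC/C core list, in which the number called higher went from 0 to 1 with library totals and ranged from 0 to 1 with each library left out, ANAPC16 being the gene called (without Erastin replicate 2). Scaling by library totals shifted the median log2 fold change of all genes by 0.0497. Over all genes, between 1341 and 1713 were called lower and between 791 and 1160 higher with the 4 libraries kept, and 1446 to 1526 lower and 895 to 1066 higher with a library left out, where a lone library is assumed to vary like the others. In the fit with a replicate block, 1568 genes were called lower and 1039 higher, and no list count moved by over 1.5 times. The labels do not say that equal numbers mark a shared preparation, and deviations of same-numbered libraries correlated at 0.0145 across genes, which are not independent. Of 110 recomputed log2 fold changes of the 10 genes, 104 moved by less than the replicate spread and 0 changed sign. CDC20, PLK1, NEK2, AURKA, AURKB, TPX2, UBE2C, PTTG1 and BORA stayed past both thresholds in all 11 alternatives, BORA by the least, with −1.005 under library totals and −1.10 to −1.01 when a library was left out, and FZR1 passed in 0. The 10 genes were chosen on this same difference, so their recomputed values are a description and not evidence about them. The lowest count of the 10 genes was 47, for NEK2 in Erastin replicate 1. NEK2 also had the largest standard error, 0.172, and the part of depth was not tested.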

Other observations

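The genes whose pattern over the 4 libraries lay closest to that of CDC20, by the Euclidean distance between mean-centred log2 CPM values, were DLGAP5, LINC01600, TRPV2, NYAP1 and KIF20A, at distances from 0.210 to 0.397. DLGAP5, a spindle protein, had 2301 and 2361 counts in control cells and 112 and 88 in Erastin-treated cells. TRPV2, an ion channel, had 414 and 372 counts and then 17 and 11, and NYAP1 had 238 and 240 and then 12 and 12. LINC01600, a long noncoding RNA, had 14 and 11 counts and then 0 and 0, so its distance rests on the 0.5 counts added before taking logarithms. Of the 10 mitotic genes PLK1 lay nearest to CDC20, at 0.410 and rank 6 of all tested genes, and NEK2 next, at 0.619 and rank 14. FZR1 lay at rank 4341. A distance over 4 libraries describes these values and says nothing of shared control.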
